A study of Mus musculus with 4 samples.

Results

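The proximal airway genes described here are 10 genes of the lining of the trachea and large bronchi: the secreted antimicrobial genes Bpifa1, Bpifb1, Reg3g and Ltf, the mucin genes Muc5b, Muc5ac and Muc1, the trefoil gene Tff2, and the basal keratin genes Krt5 and Krt15. They were 10 of the 32285 genes counted. The 10 genes were chosen by measured values of the same sections, namely their UMI levels and shares of spots in each section, their concentration in spots with the secretory transcript Scgb3a1, and their levels in vaped (V) beside non-vaped (NV) mice, so those values are given as a description. A UMI is a molecular tag that marks 1 captured RNA molecule, and levels are given as CPM, the UMIs of a gene in 1000000 UMIs of the section or spots named. Visium spatial libraries were made from cryosections of the upper pulmonary branches of C57BL/6J mice, and each capture spot is a small area of tissue that can hold several cells of different types. V mice were 6 to 8 weeks old at the start and breathed e-vapor of Peach Ice flavored VG/PG vape juice, delivered by JUUL pens in whole body chambers, for 4 h a day on 5 days a week for 9 weeks. Their labels carry the prefix 0_Per, which the study calls its 0% vape group. NV mice were the controls, labelled CTL. Each group held 1 male and 1 female, with 1 section per mouse, so group and section could be compared only over 2 mice against 2.

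The conducting airways are lined by basal cells, which lie on the basement membrane, carry Krt5 and Krt15 and can replace the cells above them, and by secretory and ciliated cells that face the lumen. Secretory cells and submucosal glands of the upper airway release proteins that act on microbes together with gel-forming mucins, and cilia move that fluid out of the lung. In the mouse, basal cells and glands are found mainly in the trachea and the largest bronchi, whereas the smaller airways are lined by club and ciliated cells.

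The sequence just before the gene start is shown for 4 of the genes, because Bpifa1, Bpifb1 and Reg3g were high in the same section and in the same spots, while Muc1 was at a like level in all sections. Bpifa1 and Bpifb1 are neighbours on chromosome 2, with 41598 bases between the end of the first and the start of the second. Muc5ac and Muc5b are neighbours on chromosome 7, with 19838 bases between them. The stretches below are the 150 bases before each RefSeq gene start, on the strand of the gene and written 5′ to 3′, in the mouse build GRCm38.p6. They lie at chr2:154142730-154142879 on the plus strand for Bpifa1, chr2:154190668-154190817 on the plus strand for Bpifb1, chr6:78468875-78469024 on the minus strand for Reg3g and chr3:89228906-89229055 on the plus strand for Muc1. Capitals mark the letters TATAAA.
Bpifa1: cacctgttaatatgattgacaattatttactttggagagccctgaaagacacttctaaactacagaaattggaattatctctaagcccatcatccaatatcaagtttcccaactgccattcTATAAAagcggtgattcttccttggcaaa
Bpifb1: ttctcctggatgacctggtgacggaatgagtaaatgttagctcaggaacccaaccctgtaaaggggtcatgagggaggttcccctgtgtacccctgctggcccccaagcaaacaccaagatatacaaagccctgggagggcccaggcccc
Reg3g: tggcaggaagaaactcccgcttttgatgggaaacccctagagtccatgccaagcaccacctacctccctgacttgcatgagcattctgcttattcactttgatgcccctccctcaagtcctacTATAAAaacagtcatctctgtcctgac
Muc1: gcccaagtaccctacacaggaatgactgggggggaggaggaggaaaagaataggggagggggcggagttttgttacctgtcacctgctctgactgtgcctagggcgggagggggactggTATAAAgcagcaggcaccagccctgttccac

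The letters TATAAA, the core of the TATA box, began 29 bases before the start of Bpifa1, 27 bases before that of Reg3g and 31 bases before that of Muc1, and were not in the window of Bpifb1. On either strand they were in 7.57% of 32851 promoter windows of the same length. The letters GGAAGT, which ETS factors can bind, TTCNNNGAA, which STAT factors can bind, TTGCNNAA, which C/EBP factors can bind, and TGTTTAC, which FOX factors can bind, were in 13.6%, 4.09%, 5.46% and 1.80% of windows, and in none of the 4 shown. Of the 6 genes of the list with a RefSeq promoter entry, Ltf held TTGCNNAA 75 bases before its start on the opposite strand, and Krt5 held none of the 5 motifs. A shared match is a description of these letters and not of any factor, and it did not separate the genes that were high together from Muc1.

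The 4 sections held 473 to 2053 spots and 6957392 to 34308556 UMIs, with a median of 6259 to 11355 UMIs per spot, and the V female section was the deepest. The sections did not hold the same tissue. Cartilage genes, which mark the rings and plates of the trachea and large bronchi, reached 49.3 CPM in the V female section against 3.03 to 6.90 in the others, and the cartilage core protein gene Acan had 132 UMIs there and 0 in every other section. The 6 cardiac muscle genes summed to 18.2 CPM in the V male section and to 3673 to 7015 in the other 3 sections. Cnmd of the cartilage list went the other way, with 3.02 CPM in the NV female section and 1.84 in the V female section. By the cartilage sum and Acan large airway was clear in the V female section alone. Which tissue a section held cannot be told apart from its group or sex with 1 section per mouse. In sums over spots, fewer cells of a type and less RNA per cell cannot be told apart either.

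The secreted antimicrobial genes were highest in the V female section, and all but Ltf were far higher there than in any other. Bpifa1 encodes a BPI-fold protein that upper airway secretory cells release. The NV male, NV female, V male and V female sections had 1478, 362, 180 and 256141 UMIs of it, or 157, 52.0, 15.2 and 7466 CPM. The V female level was 47.4 times that of the next section, and the V male level was the lowest of the 4, so the V mice stood at both ends of the range with the NV mice between them.

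Bpifb1, a larger relative of Bpifa1 that is also secreted by airway epithelium, had 19, 66, 9 and 7291 UMIs in the same order of sections, or 2.02, 9.49, 0.758 and 213 CPM. Reg3g, a C-type lectin that kills gram-positive bacteria, had 93, 29, 24 and 16022 UMIs, or 9.91, 4.17, 2.02 and 467 CPM. Ltf, lactoferrin, an iron-binding protein made by airway glands and secretory cells and also stored in neutrophil granules, had 230, 22, 24 and 1654 UMIs, or 24.5, 3.16, 2.02 and 48.2 CPM. All 3 genes repeated the pattern of Bpifa1, with V female highest, V male lowest and NV between. They differed in the size of the step: the V female level was 47.1 times the next section for Reg3g, 22.4 times for Bpifb1 and 1.97 times for Ltf, whose NV male level was the second highest. The lower sections were less clearly ordered: the counting intervals of the V male and NV female sections overlapped for Reg3g (1.29 to 3.01 and 2.79 to 5.99 CPM) and for Ltf (1.29 to 3.01 and 1.98 to 4.79), and those of the V male and NV male sections for Bpifb1 (0.346 to 1.44 and 1.22 to 3.16).

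The gel-forming mucin Muc5b, the main mucin of resting mouse airways, had 12, 27, 0 and 1351 UMIs in the NV male, NV female, V male and V female sections, or 1.28, 3.88, 0 and 39.4 CPM. The 0 of the V male section allows up to 0.253 CPM (3 UMIs of its total). Muc5ac, the gel-forming mucin that goblet cells make under stimulation, was nearly undetected, with 1, 2, 0 and 18 UMIs. Its V female level of 0.525 CPM (95% Poisson interval 0.311 to 0.829) overlapped the intervals of both NV sections, so no difference in Muc5ac was detectable at this depth between them. Tff2, a trefoil peptide that is secreted with mucus, had 0, 14, 1 and 249 UMIs, and its V female level of 7.26 CPM was 3.61 times that of the NV female section.

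Muc1, a membrane-bound mucin of many epithelia that alveolar type 2 cells also carry, did not share the pattern. It had 1344, 725, 1677 and 4379 UMIs, or 143, 104, 141 and 128 CPM, and the V female section was the third of the 4. Its spread of levels was small beside that of every other gene of the list.

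The basal keratin genes were also highest in the V female section, and Krt5 was found in that section alone. Krt5, the type II keratin that defines basal cells, had 162 UMIs in the V female section (4.72 CPM) and 0 in each of the other 3, where 0 allows up to 0.431 CPM. Krt15, a type I keratin of basal cells, had 16, 2, 3 and 723 UMIs, or 1.70, 0.287, 0.253 and 21.1 CPM, and its V female level was 12.4 times that of the NV male section. In total 9 of the 10 genes were highest in the V female section, which was also the section with the highest cartilage sum.

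**Figure D1:**
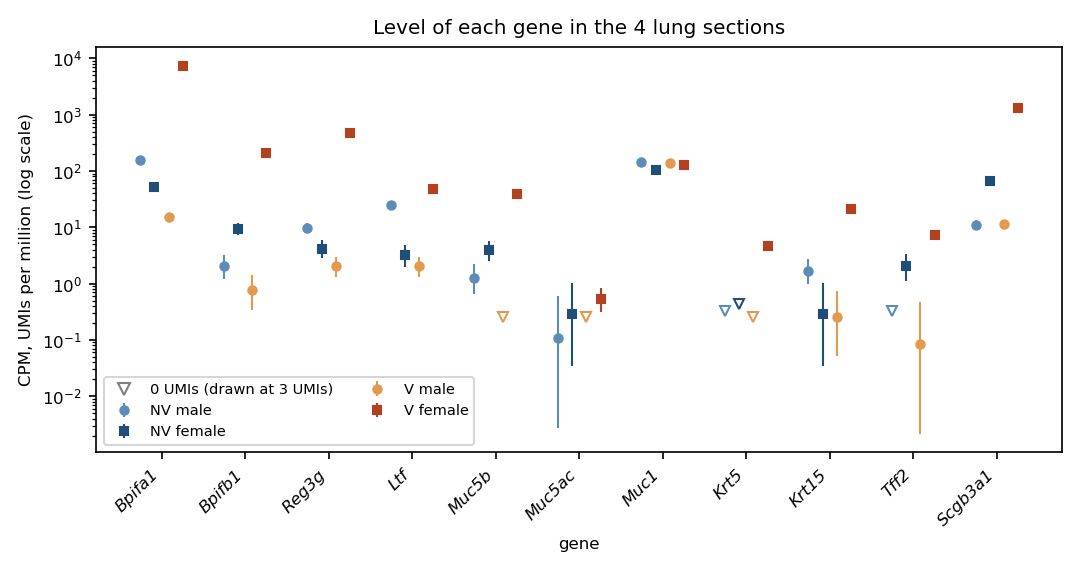
CPM (vertical axis, log scale) of each of the 10 genes and of Scgb3a1 in the NV male, NV female, V male and V female sections, 1 point per section, with 95% Poisson intervals that cover counting error only and open triangles at 3 UMIs where a section had 0. The V female point is the highest for 9 genes, from 7466 CPM for Bpifa1 down to 0.525 for Muc5ac, while the 4 points of Muc1 lie between 104 and 143.

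The share of spots with a UMI was also taken after every spot was thinned to 3000 UMIs, which left out 52 to 224 shallower spots per section. For Bpifa1 the share was 21.1%, 11.9%, 3.08% and 99.9% in the NV male, NV female, V male and V female sections. Without thinning these shares were 49.0%, 37.0%, 7.73% and 99.6%. Thinned shares in the V female section were 46.1% for Reg3g, 29.9% for Bpifb1, 9.79% for Ltf, 6.72% for Muc5b, 3.94% for Krt15, 1.37% for Tff2 and 1.15% for Krt5. In the other sections none of these 7 genes passed 4.24%, the share of Ltf in the NV male section. Muc1 was found in 35.3%, 27.6%, 34.3% and 35.5% of thinned spots. The order of shares was not that of levels for every gene: Ltf was in 0.475% of NV female and 0.660% of V male spots, against levels of 3.16 and 2.02 CPM, and Muc1 had its highest share in the V female section, so no order is read from these shares.

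V and NV were then compared with edgeR's quasi-likelihood test on UMIs summed over each section. None of the 14570 genes tested was called (0%, where a call needed an adjusted p under 0.05 with a log2 fold change beyond 0.25 in either direction), 248 had an unadjusted p under 0.05, and DESeq2 called 8. The filter on low counts removed Muc5ac and Krt5, and 0 of the 8 genes of the list that passed it were called. Their log2 fold changes with standard errors were 5.25 ± 2.75 for Bpifa1, 5.14 ± 2.47 for Reg3g, 4.32 ± 2.47 for Bpifb1, 3.46 ± 2.07 for Krt15, 3.05 ± 2.32 for Muc5b, 2.03 ± 2.29 for Tff2, 0.94 ± 1.67 for Ltf and 0.09 ± 0.23 for Muc1. The values of 7 of these 8 had large standard errors, and the 2 V sections lay on opposite sides of the NV sections for 6 genes. Without the V female section, 811 genes were called and none of the 10, and the sign of 7 of the 8 turned, to -2.93 for Bpifa1, -1.95 for Reg3g and -3.02 for Bpifb1. Without the V male section, 21 genes were called, and Bpifa1 and Reg3g, at 6.23 and 6.10, were among them. In these fits 1 V section stood alone and the NV pair alone gave the spread, and the 10 genes were chosen on these same levels, so such calls are no evidence of a difference between the groups.

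Set side by side within each sex, the ratios went in opposite ways. In males the V level over the NV level was 0.0962 for Bpifa1 (95% counting interval 0.0820 to 0.112), 0.204 for Reg3g (0.124 to 0.322), 0.374 for Bpifb1 (0.149 to 0.868) and 0.0824 for Ltf (0.0518 to 0.126). Muc5b had 0 UMIs in the V male section, and its ratio had a counting interval of 0 to 0.284. In females the same ratio was 143 for Bpifa1 (129 to 160), 112 for Reg3g (78.0 to 167), 22.4 for Bpifb1 (17.6 to 29.0), 15.2 for Ltf (10.0 to 24.4) and 10.1 for Muc5b (6.94 to 15.5). Krt5 had 0 UMIs in the NV female section, and the counting interval of its female ratio began at 8.80. Single markers of airway epithelium were also lower in the V male section than in the NV male section. Scgb1a1 went from 12429 to 259 CPM, Scgb3a2 from 200.3 to 3.11, the club cell gene Cyp2f2 from 262 to 23.8 and Foxj1 from 48 UMIs to 0. A list of 8 club cell genes summed to 15834, 4229 and 3888 CPM in the NV male, NV female and V male sections. Scgb1a1 made up most of the NV male sum but only 259 of the 3888 CPM in the V male section. A list of 10 ciliated cell genes summed to 441, 336 and 388 CPM, and this sum was not lowest in the V male section. However, 5 of the 10 ciliated genes were at 0 there, against 1 in each NV section. These sums are therefore not read as like amounts of club or ciliated cells. The part of these markers in the male ratios was not tested. The ratio intervals cover the counting of UMIs in 1 section of each kind and not the spread between mice. Muc1 was close to 1 in both sexes, at 0.986 (0.917 to 1.06) in males and 1.22 (1.13 to 1.33) in females. An exact permutation test of 2 mice against 2 cannot give a two-sided p below 0.333, and none was used.

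The spots richest in these genes differed between sections. In the NV male section the 5 richest spots held 46.8% of all Bpifa1 UMIs. Its 3 richest spots had 251, 234 and 120 UMIs of Bpifa1, together with 38, 41 and 19 of Ltf and 15, 27 and 9 of Reg3g, and had no UMI of Tff2 or of the ciliated cell gene Foxj1. Bpifa1, Ltf and Reg3g were thus found together in a few spots of that section.

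The richest spots of the NV female section had a different makeup. Its 2 spots with the most Scgb3a1 (188 and 54 UMIs) had 67 and 8 UMIs of Bpifa1, 27 and 11 of Bpifb1, 9 and 12 of Muc5b and 7 and 1 of Tff2, with 7 and 5 of Foxj1. These 2 spots held 0.326% of the section's UMIs but 77.8% of its Muc5b, 57.6% of its Bpifb1 and 57.1% of its Tff2. The V male section had 2 spots of this kind, with 30 and 17 UMIs of Bpifa1 and no UMI of Muc5b or Foxj1. In the V female section the 3 spots richest in Bpifa1 had 6562, 5449 and 5063 UMIs of it. In the spot with the most of the club cell gene Scgb1a1, the NV male section had 28966 UMIs of it and 3 of Bpifa1, and the V female section had 22147 and 201. In the NV female section that spot was also the richest in Bpifa1 (5078 and 67 UMIs), and in the V male section it was the second richest (48 and 17). Over the V female spots Pearson's correlation of the 2 genes, as log(1 + UMIs per 10000), was 0.513.

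Scgb3a1, a secretoglobin of secretory cells in the larger airways, had 104, 462, 138 and 45373 UMIs in the NV male, NV female, V male and V female sections, and at least 1 UMI in 63, 154, 105 and 1940 spots. In the NV male section the 63 spots held 9.60% of all UMIs but 57.8% of Bpifa1, 71.0% of Reg3g and 67.0% of Ltf. In the NV female section the 154 spots held 46.5% of all UMIs, 61.9% of Bpifa1, 77.3% of Bpifb1 and 88.9% of Muc5b. In the V male section the 105 spots held 9.82% of all UMIs, 38.9% of Bpifa1 (95% binomial interval 31.7% to 46.4%) and 4 of the 9 UMIs of Bpifb1. The intervals of Reg3g and Ltf there (9.77% to 46.7% and 7.13% to 42.2%), and that of Reg3g in the NV female section (45.7% to 82.1%), held the share of all UMIs, so a concentration of these was not detectable at this depth. Muc1 had 7.14%, 44.6% and 9.60% of its UMIs in these spots (NV male, then NV female, then V male), close to the share of all UMIs.

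In the V female section 1 UMI of Scgb3a1 did not set spots apart, since 94.5% of spots, with 99.3% of UMIs, had one. Spots of that section were therefore graded by their level of Scgb3a1, a choice made after the data were seen. In the 274 spots with at least 3 UMIs and a Scgb3a1 level of at least 1000 CPM, which held 18.3% of the UMIs, lay 80.7% of Tff2, 69.4% of Reg3g, 67.3% of Krt5, 66.7% of Muc5ac, 64.2% of Muc5b, 63.7% of Ltf, 63.6% of Bpifa1, 62.9% of Krt15 and 60.7% of Bpifb1. Muc1 had 19.0% of its UMIs there.

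From the lowest grade (Scgb3a1 under 200 CPM, 183 spots) to the highest (5000 and over, 37 spots), Bpifa1 went from 2869 to 60180 CPM, 21.0 times. Muc5b went from 7.88 to 315 CPM (40.1 times), Krt15 from 6.13 to 164 (26.8 times), Reg3g from 165 to 4230 (25.7 times), Ltf from 14.0 to 300.2 (21.4 times) and Bpifb1 from 84.0 to 1430 (17.0 times). Krt5 and Tff2 had 1 UMI each in the lowest grade and reached 30.5 and 83.9 CPM in the highest. These 8 genes were far richer in the spots richest in Scgb3a1, and Bpifa1 was at 2869, 2962, 3759, 7650, 20847 and 60180 CPM in the 6 grades, with most of the difference above a Scgb3a1 level of 1000 CPM. Muc1 went from 108 to 166 CPM (1.54 times), while the surfactant gene Sftpc, which marks alveolar type 2 cells, went from 18235 down to 6346. Markers of other airway cells moved with the set: the ciliated cell gene Foxj1 went from 3.50 to 99.1 CPM (28.3 times) and the club cell gene Scgb1a1 from 8957 to 65870 (7.35 times). The grade and the levels come from the same spots of 1 section and share each spot's total.

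**Figure D2:**
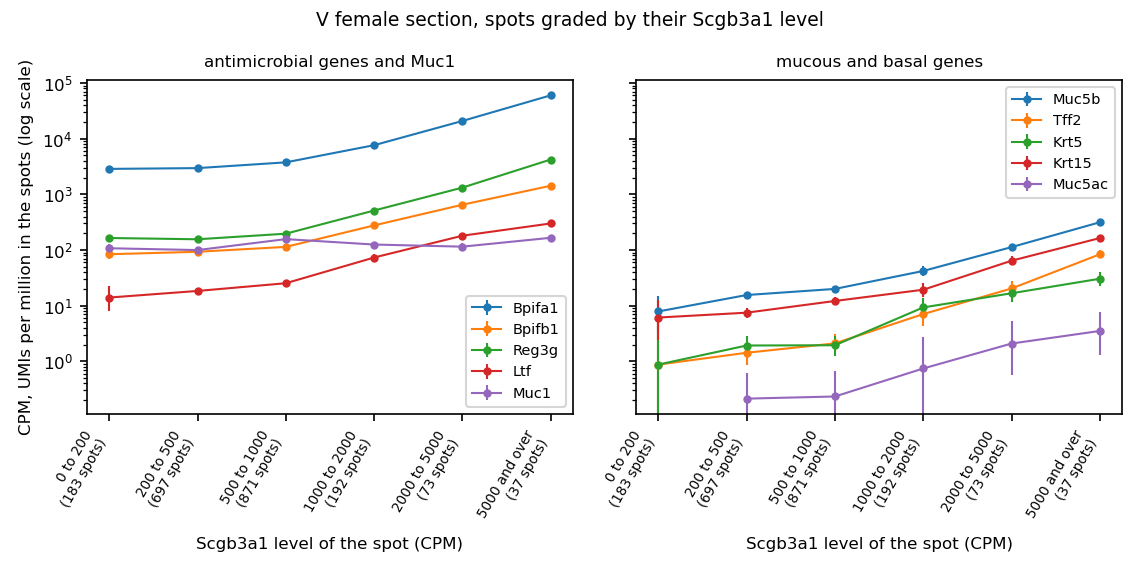
CPM (vertical axis, log scale) of the 10 genes in 6 grades of V female spots by Scgb3a1 level in CPM (horizontal axis), with 95% Poisson intervals that cover counting error only. Bpifa1 goes from 2869 in the lowest grade to 60180 in the highest, while Muc1 lies between 99.8 and 166 over the 6 grades.

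The wide spread of Bpifa1 in the V female section was set beside spots rich in heart muscle genes, since heart muscle should lack it. The threshold for such spots leaves most of their UMIs to other genes, and they can hold other tissue too. Bpifa1 in them therefore cannot be assigned to heart muscle or to airway tissue. In spots with at least 20000 CPM from the cardiac genes, thinned to 3000 UMIs, Bpifa1 was found in 95% of 20 spots (95% binomial interval 75.1% to 99.9%), against 99.9% of the other spots. The unthinned levels were 5257 and 7556 CPM, and the median depths were 39388.5 and 12966 UMIs. The shares of Reg3g were 35% in cardiac-rich and 46.3% in other spots, those of Bpifb1 40% and 29.8%, those of Ltf 25% and 9.62%, and those of Muc5b 5% and 6.74%. The shares in 20 spots moved with the thinning depth. At 1000 and 5000 UMIs Ltf was in none of the cardiac-rich spots, against 3.17% and 13.6% of others, and Muc5b was in 5% and 20%, against 1.76% and 11.9%. Without thinning, the levels in cardiac-rich and other spots were 200.2 and 214 CPM for Bpifb1, 395 and 471 for Reg3g, 53.1 and 48.3 for Ltf and 26.0 and 40.1 for Muc5b. Shares of spots with Bpifa1, Bpifb1 and Reg3g in the V female section are therefore not read as the extent of cells that make them. No order is read from the shares of Ltf and Muc5b. Krt5 and Tff2 were in 0 of 20 thinned cardiac-rich spots, which allows a share of up to 15%, beside 1.16% and 1.38% of other spots. Without thinning both were present there: Krt5 had 7 UMIs in 30% of these spots (8.65 CPM, against 4.65 in other spots) and Tff2 had 3 UMIs in 15% of them (3.71 CPM, against 7.37).

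Muc1 had a lower level in cardiac-rich than in other V female spots, at 54.4 and 129.5 CPM without thinning. Its thinned share also moved with depth. At 3000 UMIs it was in 5% of cardiac-rich spots (0.127% to 24.9%) against 35.9% of other spots. At 1000 and 5000 UMIs it was in 10% and 30%, against 13.1% and 49.7% of others. In the NV male section Bpifa1 was in 11.1% of cardiac-rich spots and 21.6% of others, and in the NV female section in 14.3% and 11.7%. The V male section had no cardiac-rich spot, so the same comparison could not be made there.

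**Figure D3:**
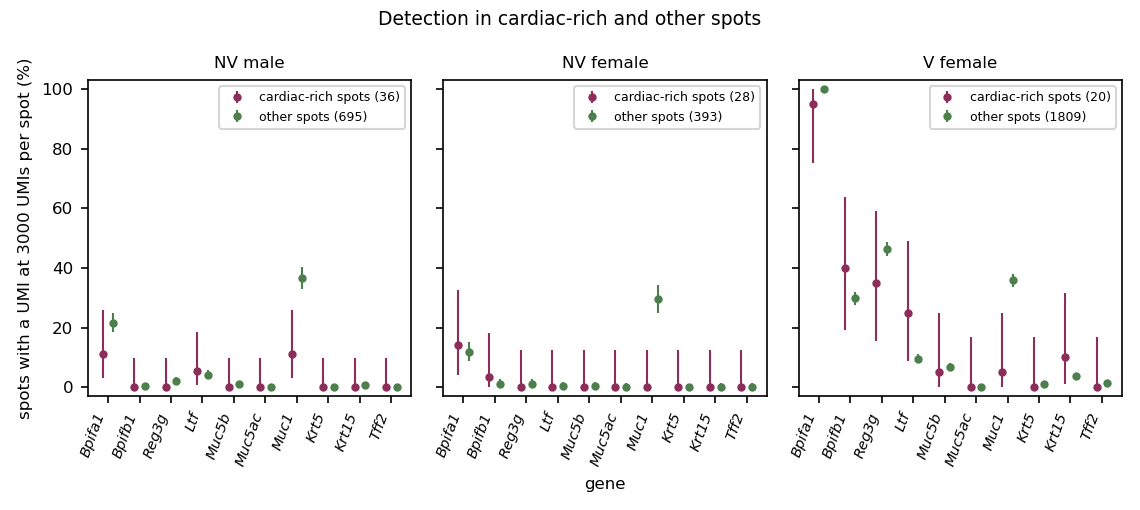
Percent of spots with a UMI (vertical axis) of the 10 genes in cardiac-rich and other spots of the V female section and both NV sections, each spot thinned to 3000 UMIs, with 95% binomial intervals that cover counting error only. In the V female panel Bpifa1 is at 95% in cardiac-rich and 99.9% in other spots, while Muc1 is at 5% and 35.9%.

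Counts relative to Bpifa1 were compared between kinds of spots of the V female section. Per 100 UMIs of Bpifa1 there were 7.52 UMIs of Reg3g in cardiac-rich spots (95% interval 6.69 to 8.43) and 6.82 (6.69 to 6.95) in the 274 spots high in Scgb3a1. For Muc5b these values were 0.494 (0.305 to 0.756) and 0.532 (0.497 to 0.569), and for Krt5 0.165 (0.0661 to 0.339) and 0.0669 (0.0549 to 0.0807). The intervals of these 3 genes overlapped. They did not overlap for Bpifb1, with 3.81 (3.23 to 4.46) and 2.72 (2.64 to 2.80), for Ltf, with 1.01 (0.730 to 1.36) and 0.647 (0.608 to 0.687), or for Scgb3a1, which graded the spots, with 16.8 (15.5 to 18.2) and 19.2 (19.0 to 19.4). Tff2 had 0.123 (0.107 to 0.142) in the high spots and 0.0515 (0.0380 to 0.0683) in all other spots, and Muc1 had 0.512 (0.478 to 0.548) and 3.8 (3.68 to 3.93). Whether free RNA spread over that section was not tested.

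Between sections the proportions differed more. Per 100 UMIs of Bpifa1, the NV male, NV female, V male and V female sections had 15.6, 6.08, 13.3 and 0.646 UMIs of Ltf. Scgb3a1 had 7.04, 128, 76.7 and 17.7, Bpifb1 had 1.29, 18.2, 5.0 and 2.85, and Muc5b had 0.812, 7.46, 0 and 0.527. The NV female section was thus the richest in Scgb3a1, Bpifb1 and Muc5b for its Bpifa1, and the V female section the poorest in Ltf. Reg3g varied least of the set, at 6.29, 8.01, 13.3 and 6.26.

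**Figure D4:**
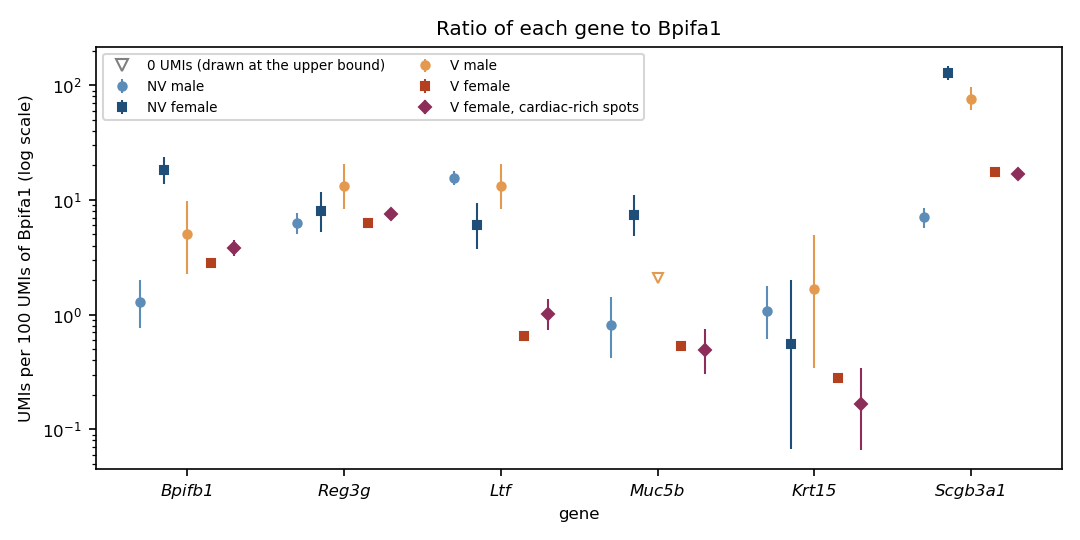
UMIs per 100 UMIs of Bpifa1 (vertical axis, log scale) for Bpifb1, Reg3g, Ltf, Muc5b, Krt15 and Scgb3a1 in each section and in the cardiac-rich V female spots, with 95% intervals that cover counting error only and an open triangle at the upper bound for the V male Muc5b count of 0. Ltf is at 15.6, 6.08 and 13.3 in the NV male, NV female and V male sections and at 0.646 in the V female section.

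Over the 2053 spots of the V female section, the genes most like each of the 10 were found by Pearson's correlation of log(1 + UMIs per 10000) with 15373 genes, given as a description, since spots of 1 section share library and depth. Bpifa1 was most like the secretoglobin Scgb3a2 (r = 0.637), Scgb3a1 (0.616), the cytochrome P450 genes Cyp2a5 (0.604) and Cyp2f2 (0.575) and Reg3g (0.560). Bpifa1 was in turn the gene most like Bpifb1 (0.530), Reg3g, Ltf (0.501), Muc5b (0.468), Krt15 (0.432), Tff2 (0.396) and Krt5 (0.261). Tff2 came next nearest to Dnah5 (0.381), a motor protein of cilia, and to Agr2 (0.377), which folds mucins. Muc1 was most like Lyz2 (0.333), Sftpc and Sftpb (0.326), genes of alveolar type 2 cells, and its correlation with Bpifa1 was 0.0416.

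Krt5 and Krt15 shared spots in part. In the V female section Krt5 was in 115 spots, Krt15 in 358 and both in 62, which is 53.9% of the Krt5 spots and 17.3% of the Krt15 spots. Trp63, the transcription factor that basal cells need, was in 29 of the Krt5 spots, or 25.2% of them and 37.2% of the Trp63 spots. Tff2 and Muc5b shared 83 spots, 68.6% of the Tff2 spots and 15.8% of the Muc5b spots, and Muc5ac, found in 16 spots, shared 12 of them with Muc5b. Krt5 and Tff2, of a basal and a secretory role, shared 36 spots, 31.3% of the Krt5 spots and 29.8% of the Tff2 spots, where Tff2 was in 5.89% of all spots. Each spot can hold several cells, and these overlaps were not corrected for spot depth.

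Other genes of these roles were read from lists of other basal, mucous and antimicrobial genes. The 12 basal genes summed to 42.2, 50.0, 42.5 and 83.2 CPM in the NV male, NV female, V male and V female sections, and the 15 mucous genes to 27.4, 38.2, 18.8 and 61.4. Both lists were highest in the V female section, by far less than Krt5 or Muc5b. Within them, the basal keratin Krt17 had 36 UMIs in the V female section and 0 elsewhere, Agr2 had 4, 4, 1 and 494, and Clca1, a goblet cell gene, had 0, 0, 0 and 43. Other members of these lists differed less or were not highest there. The keratin gene Krt14 was at 0.746, 0.862, 0.168 and 1.31 CPM. The mucin gene Muc16 was at 4.79, 15.1, 3.62 and 14.8 CPM, highest in the NV female section, and Tff3 had 0 UMIs in every section. The 25 antimicrobial genes summed to 8686, 6579, 11814 and 6758 CPM, with V male highest. Most of that sum was the lysozyme gene Lyz2, also of alveolar type 2 cells and macrophages, at 7341, 5656, 9803 and 5456 CPM. Lcn2, which binds bacterial iron carriers, was at 151, 158, 299 and 120 CPM, and the protease inhibitor Slpi was at 55.6, 56.8, 53.3 and 55.8. Pigr, which carries IgA across the epithelium, was named after its values were seen and was an exception, with 23, 14, 19 and 1560 UMIs.

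In the whole-section test of V against NV, 0 of the 8 basal, 6 mucous and 9 antimicrobial genes tested were called. Their median log2 fold changes were 0.41, 0.18 and 0.27, beside 0.03 over all genes tested. Thus 0 called among them matched the 0% over all genes.

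Neutrophils, which store lactoferrin, were read from their own 13 genes. That list summed to 179, 189, 620 and 88.6 CPM in the NV male, NV female, V male and V female sections, and so ran opposite to Ltf, which was lowest in the V male and highest in the V female section. The granule genes Camp and Ngp, which neutrophil precursors express, had 0, 7, 2 and 1 UMIs and 0, 6, 7 and 0 UMIs. Genes of glands, oesophagus and thymus were low in every section, at 2.30 to 4.93, 11.5 to 19.4 and 11.4 to 15.0 CPM, with the oesophageal gene Sprr3 and the thymic gene Foxn1 at 0 throughout. Their part in the levels of the 10 genes was not tested.

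The same V against NV test was run on the spots with Scgb3a1. It set 94.5% of the V female spots against 6.71% to 32.6% of those of the other sections, so it did not compare like tissue, and its values are given as a description. None of 11862 genes was called (0%), with 239 at an unadjusted p under 0.05 and 2 called by DESeq2. Of the 10 genes, 7 passed the filter and 0 were called, with log2 fold changes of 2.96 ± 1.56 for Bpifb1, 2.82 ± 2.19 for Bpifa1, 2.63 ± 2.01 for Reg3g, 2.33 ± 1.84 for Krt15, 1.68 ± 1.36 for Muc5b, 0.22 ± 0.23 for Muc1 and -1.59 ± 1.63 for Ltf. Without the filter on low counts 282 genes were called, among them Bpifa1, Bpifb1, Reg3g, Ltf and Muc5b. Without the V male section 106 genes were called and without the V female section 864, and the values of Bpifa1, Bpifb1 and Reg3g turned to -3.40, -2.31 and -2.97 in the latter.

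Spots with and without Scgb3a1 were last compared within sections, with each section as a block. Of 13397 genes, 59 (0.44%) were called higher and 1 (0.00746%) lower in the positive spots. Among the fixed lists, 0 of the 6 basal, 6 mucous, 8 antimicrobial and 9 ciliated genes tested were called. The club cell gene Scgb3a2, an airway secretoglobin, was called, with a log2 fold change of 1.42 ± 0.24 (adjusted p = 0.00751) and a higher level in the positive spots of 4 of 4 sections. It was called also when positive spots were defined after thinning (2.54, adjusted p = 1.1e-07) and was not called without the V female section (1.36 ± 0.29, adjusted p = 0.112) or without the section block (1.35 ± 1.48), with folds about as large.

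The other called genes of the lists were of heart muscle and brown fat: Tnni3 (0.99 ± 0.18, adjusted p = 0.0180), Myl7 (0.89 ± 0.17, adjusted p = 0.0200), Pln (0.80 ± 0.17, adjusted p = 0.0403), Nppa (0.74 ± 0.16, adjusted p = 0.0403), Cox8b and Slc36a2. Cardiac-rich spots were deeper than others in the 3 sections that had them, with medians of 28501, 43022.5 and 39388.5 UMIs in the 2 NV sections (male, then female) and the V female section against 10312, 10920 and 12966, and the part of depth in these calls was not tested. None of the 6 was called without the V female section. With positive spots defined after thinning, Nppa alone of these 6 was still called (0.61, adjusted p = 0.0220).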

How the data were processed

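The deposited tables hold UMI counts per gene and spot, which the authors made with Space Ranger against mm10. The submitters' processing notes also name Seurat 4.0.3, and the deposited counts are not normalized. All barcodes of the 4 tables were used, and no doublet caller was run. Levels are CPM (UMIs in 1000000). Intervals (95%, exact Poisson or binomial) cover counting error only. A count of 0 was bounded by 3 UMIs. Shares were computed after thinning each spot to 3000 UMIs. UMIs were summed per section, or per section and spot class with at least 20 spots, and tested with edgeR 4.0.16 (R 4.3.3, TMM, filterByExpr, Benjamini-Hochberg adjustment over all genes), with DESeq2 1.42.0 as an alternative. The code was tested on simulated data. Each mouse gave 1 section, and p-values measure the spread between 4 sections. Barcode sequences shared between sections come from the array design. Promoters are from RefSeq (GRCm38.p6). The 10 genes, the lists and the tests were chosen with earlier results of these data known. Named genes were the 10, Scgb3a1, up to 3 called genes per list, the 2 most abundant of a list where a result turned on it, and the 5 genes most like each. Other genes (Nppa, Lcn2, Slpi, Acan, Cnmd, Krt17, Krt14, Agr2, Clca1, Muc16, Tff3, Pigr, Camp, Ngp, Sprr3, Foxn1, Trp63, Foxj1, Scgb1a1) were named after their values were seen.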

Additional observations from a re-analysis of the deposited data

Results flagged for a closer look

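The V to NV ratio went opposite ways in the sexes for 6 genes, and this difference between sexes was not tested, since each sex and group held 1 section. In males and females respectively, the ratio of levels was 0.0962 and 143 for Bpifa1, 0.374 and 22.4 for Bpifb1, 0.204 and 112 for Reg3g, 0.0824 and 15.2 for Ltf, and 0.148 (95% counting interval 0.0277 to 0.518) and 73.3 (20.2 to 606) for Krt15, which had 2 and 3 UMIs in the NV female and V male sections. For Muc5b it was 10.1 in females, and in males 0.198 with the V male count of 0 set to 3 UMIs. The V female section also had the highest cartilage sum, and the V male section had almost no cardiac transcripts. Sex, exposure and the tissue held by a section therefore cannot be told apart.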

How the results depend on the processing

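Each mouse gave 1 section, and 1 section decided most values. Leaving out 1 section in turn gave 0 to 811 genes called for V against NV over whole sections, 0 to 864 in spots with Scgb3a1 and 7 to 224 for spots with against spots without it. DESeq2 called 8, 2 and 23 genes in these comparisons. Without the filter on low counts 282 genes were called in spots with Scgb3a1 and 384 between spots. The comparison between spots gave 126 calls with DESeq2's size factors, 0 without the section block and 37 with positive spots defined after thinning, 9 of them among the 60 called. Leaving out 1 section gave whole-section log2 fold changes of -2.93 to 6.23 for Bpifa1, -3.02 to 5.81 for Bpifb1, -1.95 to 6.10 for Reg3g, -2.93 to 3.05 for Ltf, -7.64 to 4.07 for Muc5b, -0.11 to 0.33 for Muc1, -2.12 to 5.25 for Krt15 and -3.42 to 9.17 for Tff2, where fits with a group at 0 give no bound. In spots with Scgb3a1 they were -3.40 to 5.81 for Bpifa1, -2.31 to 3.88 for Bpifb1, -2.97 to 5.38 for Reg3g and -4.51 to 2.55 for Ltf. The cause was not tested. Under settings that kept all sections, 91 of the fold changes of the 10 genes kept their sign and call and 5 gained a call, and 40 levels moved by less than counting error without spots under 500 UMIs.

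Male sections carry number 1 and female sections number 2, but the labels name no shared litter or day. With a replicate block on these numbers 0 genes were called over whole sections and 0 in spots with Scgb3a1 (413 and 295 at an unadjusted p under 0.05). Deviations of same-numbered sections correlated at r = 0.324 across 14570 genes, which are not independent. The share of cardiac-rich V female spots with Bpifa1 was 95% at 3000 UMIs, 80% at 1000 and 100% at 5000. The 2 alternatives added after the data were seen, without spots high in Scgb3a1 and without the 5 spots of each section richest in Bpifa1, also gave 0 calls over whole sections. Spots with at least 3 UMIs of Scgb3a1 could not be fitted, since only the V female section had 20 of them.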
